A study of Mus musculus with 6 samples.

Results

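The genes described here are the 36 genes of glucose uptake, glycolysis, lactate handling, the pentose phosphate pathway and glycogen metabolism that were listed by symbol for brown adipose tissue (BAT) of Letmd1 KO mice. They were found by matching symbols to the 23282 rows of the count files. All 36 had a row with at least 1 count, and 35 passed the filter on low counts and were tested among 12995 rows. The gene left untested was Eno1, for which the files hold 1, 1 and 0 counts across wild-type libraries and 0 in each KO library.

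BAT was taken from 3 wild-type and 3 Letmd1 KO mice, all male C57BL/6N animals at 5 weeks of age. The KO mice carried a knockout-first allele, in which a cassette with lacZ and a neomycin resistance gene sits in the intron before exon 3 of Letmd1, so that the gene is disrupted in every tissue and not in brown adipocytes alone. QuantSeq libraries, which read the 3′ ends of polyadenylated transcripts, gave between 6669577 and 14574273 counts per mouse. The comparison asked how loss of LETMD1, a protein of the mitochondrial matrix, changes the transcripts of BAT.

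Brown adipocytes take up glucose through the insulin-responsive transporter GLUT4 and trap it as glucose 6-phosphate by hexokinase. From there carbon can go down glycolysis to pyruvate and lactate, through the pentose phosphate pathway to NADPH and ribose, or into glycogen. Most of these steps have several isoforms, encoded by separate genes, that differ in tissue and in regulation.

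The targeted gene was checked first. Letmd1 (chr15:100469023-100479164, plus strand, GRCm38) reached 609, 687 and 686 CPM in wild-type BAT, where CPM are counts scaled to a common library size with TMM factors. In KO BAT it was at 0, 0 and 0.0587 CPM, at or under the level of 3 counts in each library, which was between 0.176 and 0.397 CPM. The libraries bore out their labels. Some markers of other cells also moved with genotype. The marker counts here stand against 22.3% of all genes tested called lower and 23.7% called higher (edgeR, adjusted p under 0.05). All 13 macrophage markers were higher in KO mice, with a summed level of 198 to 270 CPM in wild-type and 1520 to 3680 CPM in KO mice, highest in KO 2. Of 14 brown adipocyte markers 12 were lower, and their sum went from 45700 to 51900 CPM in wild-type mice to 15300 to 18700 CPM in KO mice, with no marker at 0. Of 14 tested skeletal muscle markers 2 were higher, with sums of 87.6, 527 and 99.9 CPM in wild-type and 482, 375 and 1371 CPM in KO mice. Of the muscle markers, 8 and 6 were at 0 in wild type 1 and 3 and none in the other mice. Of 8 Schwann cell and nerve markers 6 were higher (307 to 329 against 437 to 607 CPM), 2 of 3 tested lymphocyte markers were higher (3.01 to 6.38 against 6.8 to 13 CPM), 3 of 9 endothelial markers were lower (701 to 801 against 481 to 612 CPM), and 0 of 7 erythroid markers passed the test (13700 to 25400 against 13500 to 18600 CPM). Fits with the muscle level as a covariate and with scaling to adipocyte markers are given below. Otherwise the part of these cells in the results was not tested. In bulk tissue, fewer cells of a type and less RNA per cell cannot be told apart.

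Letters upstream of the start sites are shown for 6 genes, each of which holds the hypoxia-response core. These 6 do not stand for all genes that the results turn on. The regulators of glycolysis with the best known binding letters, the hypoxia-inducible factors and the E-box proteins MYC and ChREBP, are among genes measured below. Each sequence was read from the RefSeq promoters of GRCm38.p6 and runs 5′ to 3′ along the gene's own strand, with capitals marking the hypoxia-response core ACGTG on either strand. Pfkfb3 has 2 annotated starts, and both are shown. Slc2a1 and Hk1, the basal glucose transporter and hexokinase, rose in KO mice, and Hk2, Ldha, Pgk1, Pfkfb3 and Pygl fell. Hk1 had no match and is not shown. Other genes with large changes had no match either, among them Pfkl, Aldoc, Pfkfb4, Taldo1, Tkt, Gys1 and Gbe1. Slc2a4 and Gys2 had no RefSeq promoter to search.
Slc2a1: gtcccgccccggACGTGctccccaggccc
Hk2: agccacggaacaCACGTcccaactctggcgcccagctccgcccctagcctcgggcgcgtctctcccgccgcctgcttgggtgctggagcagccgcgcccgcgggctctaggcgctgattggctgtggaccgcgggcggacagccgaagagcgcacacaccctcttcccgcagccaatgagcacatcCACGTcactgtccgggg
Ldha: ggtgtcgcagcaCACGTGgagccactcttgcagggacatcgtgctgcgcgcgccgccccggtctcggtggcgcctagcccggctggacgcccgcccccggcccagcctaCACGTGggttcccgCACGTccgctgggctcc
Pgk1: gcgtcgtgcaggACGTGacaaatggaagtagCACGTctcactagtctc
Pfkfb3, outer start: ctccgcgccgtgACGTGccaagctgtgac
Pfkfb3, inner start: cacccttctctcCACGTGaaagggggctgg
Pygl: cctttgcgcactACGTGacctggacgttc

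These stretches lie at chr4:119108697-119108725 (plus strand) for Slc2a1, chr6:82774490-82774692 (minus) for Hk2, chr7:46845647-46845786 (plus) for Ldha, chrX:106186938-106186985 (plus) for Pgk1, chr2:11553973-11554001 and chr2:11502126-11502155 (both minus) for the outer and inner start of Pfkfb3 and chr12:70227798-70227826 (minus) for Pygl. In Ldha the core occurs at 3 places, 2 of them as the palindrome CACGTG, which holds ACGTG on each strand and was counted under both motifs. In the 250 bases before the start, ACGTG occurred in 16.6% of 32851 promoters and in 19 of the 53 promoters of the genes listed, from 15 of the 34 genes with a RefSeq promoter. Several of the 53 windows overlap, so they are not independent. Genes with the core were in every class of response, with 11 of 23 genes that fell, 1 of 5 that rose (Slc2a1) and 3 of 5 that did not pass the test. A gene counts here if any of its promoters matches, so counts of genes cannot be set against the 16.6% of promoters. The share of all genes with a match was not computed. The E-box CACGTG was in 6.02% of all promoters and in 5 of the 53 (of Pfkm, Ldha, Slc16a1, Pfkfb2 and Pfkfb3). The letters TGATGCAA, bound by ATF4 with a C/EBP partner, were in 0.792% of all promoters and in 0 of the 53. A match describes letters only and does not show that a factor binds there.

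Most of the pathway fell in Letmd1 KO BAT, and a smaller set of isoforms rose. Of the 35 genes tested, 25 were lower in KO mice, against 22.3% of all genes tested, and 5 were higher, against 23.7% of all genes (edgeR's quasi-likelihood test, Benjamini-Hochberg adjusted p under 0.05). The 5 that did not pass were Tpi1, Slc16a1, Slc16a3, Rpia and Pygb. Every KO mouse lay below every wild-type mouse for 26 of the 35, against 27.2% of all genes. Every KO mouse lay above every wild-type mouse for 6, against 30.1% of all genes. The counts given for each branch below stand against the same shares. The median log2 fold change of the 35 was -1.29, beside 0.033 over all genes tested. The summed level of the 36 genes was 22223 ± 1195 CPM in wild-type and 7003 ± 531 CPM in KO mice (SD, n = 3), or 31.5% of wild type. The most abundant gene in both genotypes was Aldoa.

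**Figure D1:**
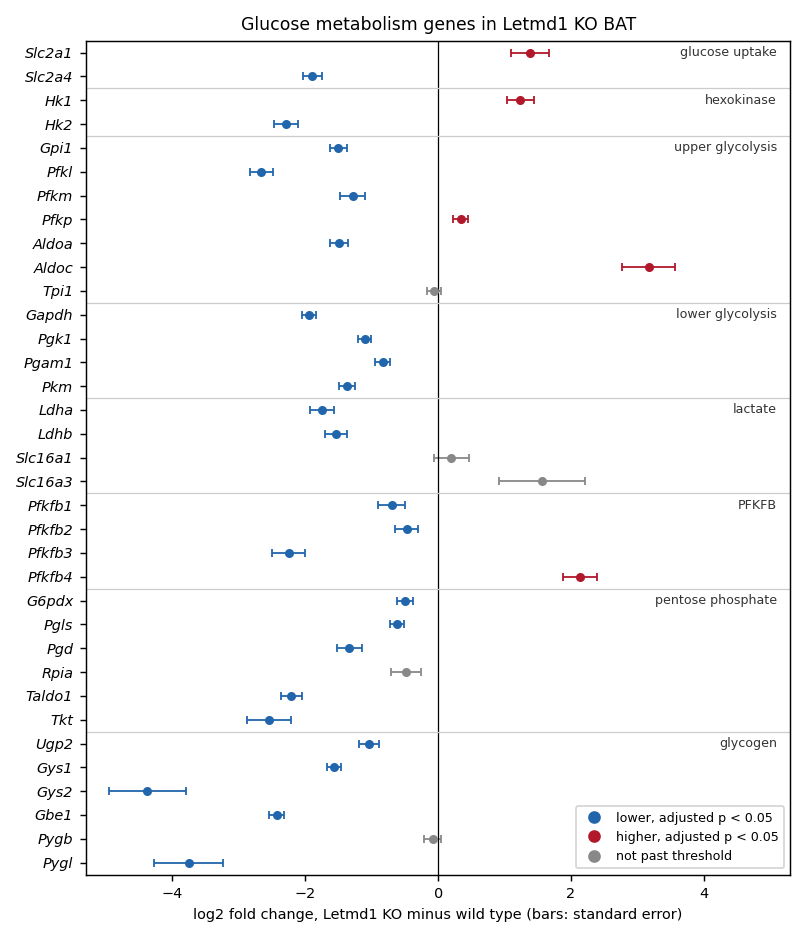
Log2 fold change (Letmd1 KO minus wild type, n = 3 mice per genotype) of the 35 tested genes, in rows by branch, with bars for the standard error. Blue points were lower, red points higher and grey points not past an adjusted p of 0.05; the red points are Slc2a1, Hk1, Pfkp, Aldoc and Pfkfb4, each beside an isoform in blue.

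At the entry of glucose, the insulin-responsive and the basal transporter went in opposite directions. Slc2a4, which encodes GLUT4, had 443, 519 and 586 CPM in wild-type mice and 128, 129 and 159 CPM in KO mice. All KO mice were well below all wild-type mice, a log2 fold change of -1.90 (SE 0.14, adjusted p = 1.66e-05, edgeR). Slc2a1, which encodes the basal transporter GLUT1, was a minor transcript with 7.43, 10.5 and 4.82 CPM in wild-type mice, and it had 24.5, 15.2 and 20.1 CPM in KO mice. The groups did not overlap and the log2 fold change was 1.39 (SE 0.29, adjusted p = 0.00366, edgeR). The call on Slc2a1 was lost when the muscle level of each mouse was a covariate (log2 fold change 0.92, adjusted p = 0.0935). It was also lost when libraries were scaled to Rpl32 (0.68, adjusted p = 0.0687). The muscle level, the mean log2 CPM of 15 markers, was -0.51, 4.15 and -0.52 in wild-type and 4.02, 3.81 and 5.63 in KO mice. Muscle and genotype thus cannot be fully told apart in any fit with this covariate. Over all genes such a fit gave 1777 lower and 1815 higher, against 2897 and 3082 without it. Rpl32, the reference gene of the study's qRT-PCR, was itself higher in KO mice by 0.75 on the log2 scale (adjusted p = 0.00198, edgeR).

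Glucose phosphorylation followed the same pattern. Hk2, the hexokinase of insulin-responsive tissues, had 1299, 1088 and 1162 CPM in wild-type mice and 258, 183 and 284 CPM in KO mice, with a log2 fold change of -2.29 (SE 0.18, adjusted p = 1.73e-05, edgeR). Hk1, the hexokinase of most other tissues, had 19.5, 27.5 and 20.4 CPM in wild-type and 56.9, 39.7 and 62.1 CPM in KO mice, a log2 fold change of 1.24 (SE 0.20, adjusted p = 0.001, edgeR). Neither gene overlapped between genotypes. QuantSeq makes about 1 read per transcript whatever its length, so shares of the counts at a step were compared within each mouse. Hk1 made up 1.48, 2.47 and 1.73% of hexokinase counts in wild-type mice and 18.0, 17.8 and 17.9% in KO mice. The 3 KO mice were nearly equal. Summed over both genes the KO level was 24.5% of wild type, so Hk1 did not make up the difference in count. Scaled to Rpl32, Hk1 was at 0.53 on the log2 scale and lost its call (adjusted p = 0.0878).

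In upper glycolysis 4 of 7 genes fell, 2 rose and Tpi1 did not pass the test, against 22.3% lower and 23.7% higher of all genes. Gpi1, which makes fructose 6-phosphate, had 747, 682 and 844 CPM in wild-type and 261, 257 and 286 CPM in KO mice (log2 fold change -1.50, SE 0.12). Phosphofructokinase, the committed step, changed in makeup. Pfkl, the liver-type subunit and the main one in wild-type BAT, had 721, 798 and 895 CPM in wild-type and 107, 159 and 116 CPM in KO mice (log2 fold change -2.66, SE 0.17, adjusted p = 8.45e-06, edgeR). Pfkm, the muscle subunit, had 47.5, 50.6 and 46.2 CPM in wild-type and 15.3, 18.2 and 25.1 CPM in KO mice, and was highest among KO mice in KO 3, which also had the highest muscle markers. Pfkp, the platelet subunit, had 111, 128 and 132 CPM in wild-type and 153, 144 and 172 CPM in KO mice. All KO mice were above all wild-type mice, yet the change of 0.34 (SE 0.12, adjusted p = 0.037, edgeR) was small and its call was lost without wild type 1 (adjusted p = 0.137), wild type 2 (0.0874), KO 1 (0.0778) or KO 3 (0.127), and with the muscle level as a covariate (0.23, adjusted p = 0.386).

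The Pfkl share of phosphofructokinase counts was 82.0, 81.7 and 83.4% in wild-type mice and 38.8, 49.5 and 37.1% in KO mice. Pfkp took 12.6, 13.2 and 12.3% in wild-type and 55.7, 44.8 and 54.9% in KO mice, and thus became the most counted subunit in KO 1 and KO 3, but not in KO 2. The summed level of the 3 subunits in KO mice was 31.1% of wild type.

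Among the aldolases, Aldoa had 5424, 5686 and 5660 CPM in wild-type and 1860, 2096 and 2018 CPM in KO mice (log2 fold change -1.49, SE 0.14, adjusted p = 4.05e-05, edgeR), and the change was -0.44 with quantile normalization. Aldoc, known from brain, had 1.72, 1.59 and 1.95 CPM in wild-type and 22.7, 8.06 and 16.3 CPM in KO mice, a log2 fold change of 3.17 (SE 0.39, adjusted p = 0.000217, edgeR) and the largest rise of the 35 genes. Aldoc was nonetheless 0.798% of aldolase counts in KO mice. Tpi1, the triose phosphate isomerase, had 167, 183 and 178 CPM in wild-type and 163, 156 and 184 CPM in KO mice. The groups overlapped and the log2 fold change was -0.07 (SE 0.11, adjusted p = 0.638, edgeR), with a sign that turned when libraries were scaled by total counts alone (0.35, adjusted p = 0.0249).

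In lower glycolysis all 4 tested genes fell, among them Gapdh, whose values are uncertain for a reason given below. Pgk1, the first ATP-yielding enzyme, had 190, 182 and 194 CPM in wild-type and 90.5, 79.3 and 92.1 CPM in KO mice (log2 fold change -1.11, SE 0.10). Pgam1 had 434, 452 and 446 CPM in wild-type and 243, 226 and 279 CPM in KO mice (log2 fold change -0.83, SE 0.11). Pkm, the pyruvate kinase of tissues other than liver and red cells, had 1277, 1278 and 1433 CPM in wild-type and 475, 503 and 563 CPM in KO mice (log2 fold change -1.37, SE 0.12). No group of these 3 genes overlapped, and all adjusted p were 0.000352 or lower (edgeR).

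The values of Gapdh and of enolase are uncertain. Gapdh, often a loading control, had 130, 132 and 147 CPM in wild-type and 35.8, 35.6 and 35.4 CPM in KO mice (log2 fold change -1.94, SE 0.10). However, 73.9% of the 75-base windows at its 3′ ends also occur in other annotated genes, 90 in number, and the count files do not show how such reads were divided. For Eno1 the share was 85.7%, mainly with Eno1b, a retrogene copy. Eno1b stood on 2 rows of the table, the first with 455, 492 and 578 CPM in wild-type and 92.2, 122 and 104 CPM in KO mice (log2 fold change -2.26, SE 0.15). The reads of Eno1 and Eno1b cannot be told apart here, so no value is given for enolase 1 alone. Gpi1, Tpi1, Pkm, Ldha, Ldhb and Aldoa shared between 1.95 and 9.29% of their windows with other genes, and the other 28 members shared none.

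**Figure D2:**
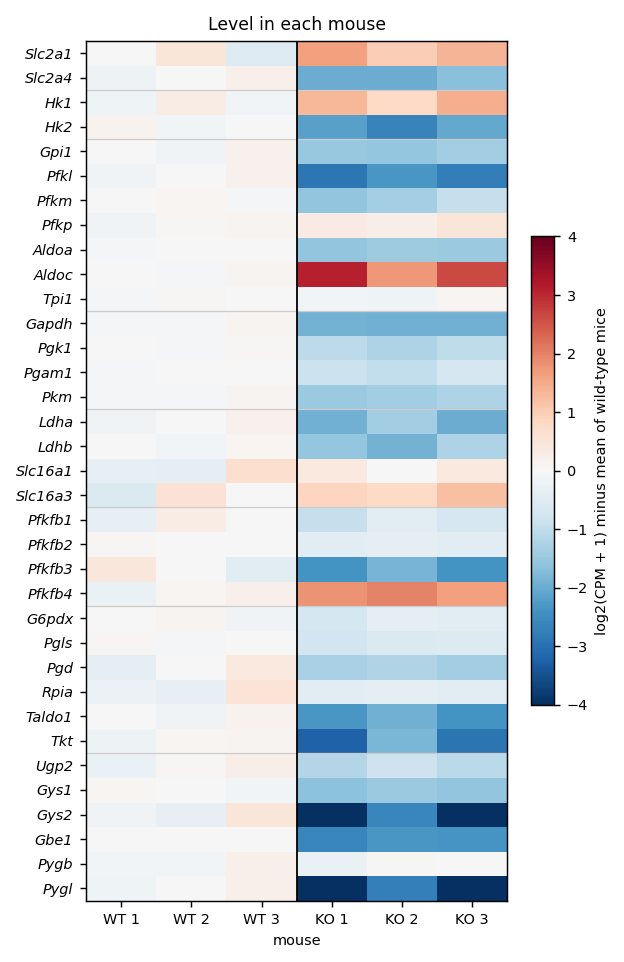
Level of the 35 tested genes (rows, by branch) in each mouse (columns), as log2(CPM + 1) minus the mean of the 3 wild-type mice, with colours limited to -4 and 4. The KO columns are blue for most rows, red for Slc2a1, Hk1, Aldoc and Pfkfb4, and paler in KO 2 than in KO 1 and KO 3 for Tkt, Pygl and Gys2.

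Both lactate dehydrogenases fell, while the lactate transporters did not pass the test. Ldha, which favours lactate, had 1015, 1106 and 1267 CPM in wild-type and 294, 427 and 286 CPM in KO mice (log2 fold change -1.75, SE 0.18). Ldhb, which favours pyruvate, had 399, 365 and 411 CPM in wild-type and 133, 104 and 167 CPM in KO mice (log2 fold change -1.54, SE 0.16). Their ratio per mouse was 2.54, 3.03 and 3.08 in wild-type and 2.20, 4.09 and 1.71 in KO mice. These ratios overlapped (exact permutation test, two-sided, p = 0.6). Slc16a1, the transporter MCT1, had 241, 237 and 489 CPM in wild-type and 398, 310 and 398 CPM in KO mice, with wild type 3 above every KO mouse (log2 fold change 0.19, SE 0.26, adjusted p = 0.577, edgeR). Without wild type 3 it was called higher (0.61, adjusted p = 0.0104). Slc16a3, the transporter MCT4, was at 0.108, 1.48 and 0.651 CPM in wild-type and 1.98, 1.85 and 2.82 CPM in KO mice. Its groups did not overlap, but the log2 fold change of 1.57 (SE 0.64) had an adjusted p of 0.074 (edgeR), and it was called higher without wild type 2 (2.58, adjusted p = 0.023). Wild type 2 and KO 3, the mice with the most muscle marker counts of their genotype, were also highest for Slc16a3, and with the muscle covariate its log2 fold change was 0.45 (adjusted p = 0.679).

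The PFKFB enzymes make and break fructose 2,6-bisphosphate, an activator of phosphofructokinase, and here 3 of 4 genes fell and 1 rose. Pfkfb3, the form with the strongest kinase activity and the main one in wild-type BAT, had 1137, 841 and 601 CPM in wild-type and 157, 230 and 157 CPM in KO mice (log2 fold change -2.25, SE 0.25, adjusted p = 9.94e-05, edgeR). Pfkfb4 had 2.05, 2.86 and 3.26 CPM in wild-type and 11.9, 13.5 and 10.5 CPM in KO mice (log2 fold change 2.13, SE 0.26, adjusted p = 0.000185, edgeR). The groups were apart for both, and Pfkfb4 went from 0.332 to 5.46% of PFKFB counts. Pfkfb1 had 24.2, 37.7 and 31.0 CPM in wild-type and 15.6, 22.7 and 18.9 CPM in KO mice (log2 fold change -0.70, SE 0.20, adjusted p = 0.0178, edgeR). Pfkfb2 had 13.4, 12.7 and 12.8 CPM in wild-type and 9.11, 9.52 and 9.34 CPM in KO mice (log2 fold change -0.47, SE 0.17, adjusted p = 0.0462, edgeR). These calls did not all hold when 1 mouse was left out. That of Pfkfb1 was lost without wild type 2 (adjusted p = 0.0651), KO 1 (0.0709) or KO 3 (0.0557), and that of Pfkfb2 without any of the 6 mice (0.0608 to 0.105). With total counts alone Pfkfb1 was at -0.29 (adjusted p = 0.25) and Pfkfb2 at -0.05 (adjusted p = 0.809), and the call on Pfkfb2 was also lost with DESeq2 (0.0763), without the filter (0.0715) and with the muscle covariate (0.249).

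In the pentose phosphate pathway 5 of 6 genes fell, against 22.3% of all genes. Every KO mouse was below every wild-type mouse for all 6, against 27.2% of all genes. G6pdx, the first and NADPH-producing enzyme, had 163, 175 and 147 CPM in wild-type and 99.9, 124 and 119 CPM in KO mice (log2 fold change -0.50, SE 0.12, adjusted p = 0.00799, edgeR). Pgls, the next enzyme, had 247, 228 and 241 CPM in wild-type and 140, 161 and 164 CPM in KO mice (log2 fold change -0.62, SE 0.11, adjusted p = 0.00128, edgeR). Both calls were lost when libraries were scaled by total counts alone (-0.09 and -0.20). That of G6pdx was also lost with quantile normalization (-0.31, adjusted p = 0.0575, limma). With scaling to adipocyte markers, described below, G6pdx was called higher (0.43, adjusted p = 0.0286, edgeR). Under that scaling Pgls changed sign but did not pass the test (0.31, adjusted p = 0.0944, edgeR). Pgd, which yields the second NADPH, had 618, 798 and 1054 CPM in wild-type and 324, 347 and 308 CPM in KO mice (log2 fold change -1.33, SE 0.18). Rpia, which forms ribose 5-phosphate, had 32.4, 30.7 and 56.9 CPM in wild-type and 28.1, 29.2 and 28.1 CPM in KO mice, and did not pass the test (log2 fold change -0.49, SE 0.22, adjusted p = 0.105, edgeR).

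Transaldolase and transketolase, which exchange carbon with glycolysis, also fell. Taldo1, transaldolase, had 1855, 1663 and 2041 CPM in wild-type and 369, 484 and 350 CPM in KO mice (log2 fold change -2.21, SE 0.16, adjusted p = 1.44e-05, edgeR). Tkt, transketolase, had 1789, 2176 and 2221 CPM in wild-type and 218, 576 and 270 CPM in KO mice (log2 fold change -2.54, SE 0.33, adjusted p = 0.000275, edgeR). KO 2 was the highest KO mouse for both. Without KO 2 the log2 fold change of Tkt was -3.08.

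Glycogen genes had the lowest median log2 fold change of the branches, and 5 of 6 fell. Ugp2, which makes UDP-glucose, had 115, 142 and 162 CPM in wild-type and 61.0, 77.8 and 64.7 CPM in KO mice (log2 fold change -1.04, SE 0.15). Gys1, the muscle-type glycogen synthase and the main one here, had 301, 284 and 263 CPM in wild-type and 90.3, 101 and 93.6 CPM in KO mice (log2 fold change -1.57, SE 0.11). Gbe1, the branching enzyme, had 560, 562 and 544 CPM in wild-type and 90.9, 111 and 107 CPM in KO mice (log2 fold change -2.43, SE 0.12). The spread within each genotype was small for these genes beside the difference, and their adjusted p were 0.000488 or lower (edgeR).

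The liver isoforms fell the most. Gys2, the liver glycogen synthase, had 23.8, 20.6 and 36.9 CPM in wild-type and 0.439, 3.44 and 0.587 CPM in KO mice, a log2 fold change of -4.37 (SE 0.57, adjusted p = 0.000285, edgeR) and -5.64 without KO 2. Pygl, the liver phosphorylase, which releases glucose 1-phosphate from glycogen, had 1657, 1860 and 2149 CPM in wild-type and 78.2, 279 and 64.4 CPM in KO mice, a log2 fold change of -3.75 (SE 0.52, adjusted p = 0.000396, edgeR) and -4.73 without KO 2. In both genes KO 2 was several times above the other KO mice and still far below every wild-type mouse. Pygb, the brain phosphorylase, had 67.7, 68.1 and 84.4 CPM in wild-type and 60.4, 75.6 and 71.5 CPM in KO mice, which overlapped (log2 fold change -0.08, SE 0.13, adjusted p = 0.636, edgeR). Its share of the counts of both genes went from 3.93, 3.53 and 3.78% in wild-type mice to 43.6, 21.3 and 52.6% in KO mice, and the KO sum of both was 10.7% of wild type. The muscle phosphorylase Pygm, which is not among the 36 genes, had 2.91, 13.7 and 4.82 CPM in wild-type and 8.45, 8.20 and 29.7 CPM in KO mice, high in the libraries with high muscle markers.

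**Figure D3:**
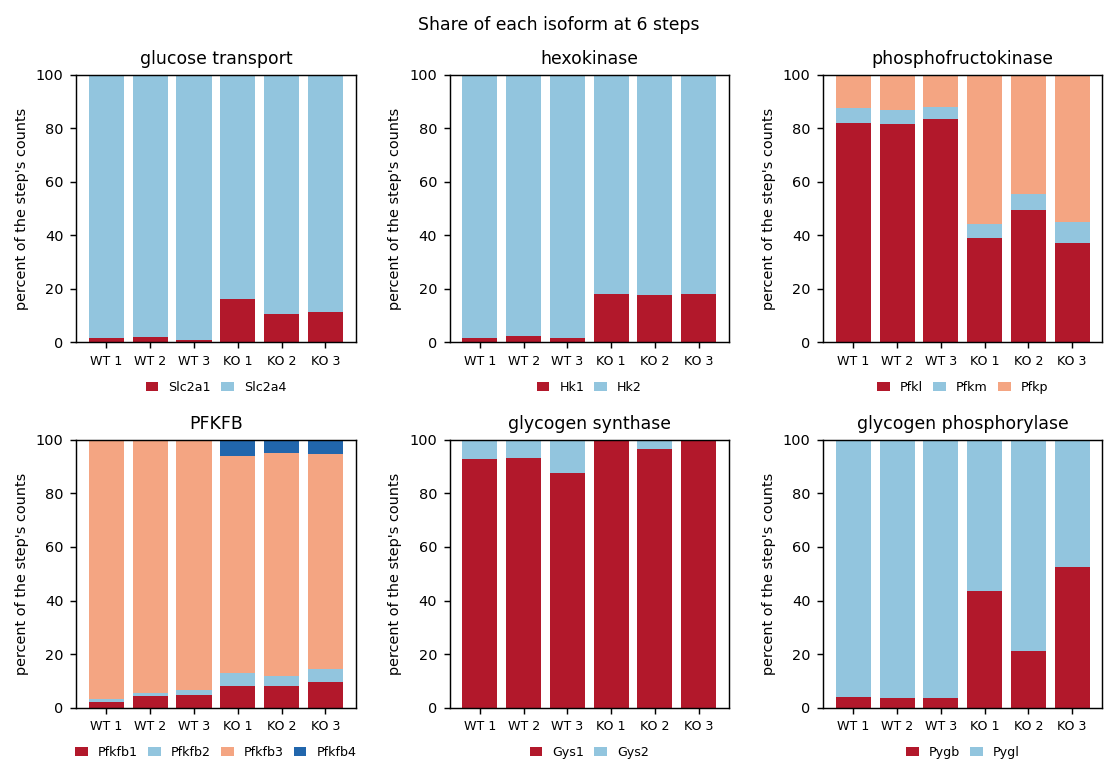
Share of each isoform (percent of the counts of the step's listed genes, stacked bars) in each of 6 mice, at 6 steps. Shares were alike within a genotype for hexokinase (Hk1 at 17.8 to 18.0% in KO mice) and varied most among KO mice for phosphorylase (Pygb at 21.3 to 52.6%).

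The isoform ratios do not depend on how libraries are scaled, since both counts come from the same mouse. The 10 pairs compared were chosen with earlier results of these data known, and no share over other pairs of genes was computed. Among single genes, 27.2% of all tested had every KO mouse below every wild-type mouse, and 30.1% had every KO mouse above. Of the 10 ratios, 8 did not overlap between genotypes. Each of these had p = 0.1 in a two-sided exact permutation test, the smallest that 3 against 3 mice allow. After Benjamini-Hochberg adjustment over the 10 it was 0.125. Since this test cannot reach 0.05 here, sizes are given with their spread. The log2 ratio of Slc2a1 to Slc2a4 went from -6.14 ± 0.68 in wild-type to -2.81 ± 0.38 in KO mice (SD, n = 3), a difference of 3.33 in favour of Slc2a1. That of Hk2 to Hk1 went from 5.73 ± 0.39 to 2.19 ± 0.01, a difference of -3.53 in favour of Hk1. That of Pfkp to Pfkl went from -2.70 ± 0.07 to 0.31 ± 0.40. The log2 ratio of Pygb to Pygl went from -4.68 ± 0.08 to -0.70 ± 1.06, and that of Gys1 to Gys2 from 3.42 ± 0.51 to 6.54 ± 1.47. These had the widest spread among KO mice together with Aldoa to Aldoc, and KO 2 lay nearest to the wild-type mice in both. Without KO 2 the difference for Pygb to Pygl was 4.57 in place of 3.98, and for Gys1 to Gys2 3.96 in place of 3.11. The log2 ratio of Aldoa to Aldoc went from 11.60 ± 0.15 to 7.10 ± 0.84, that of Pfkfb3 to Pfkfb1 from 4.77 ± 0.68 to 3.24 ± 0.16 and that of Pfkl to Pfkm from 4.06 ± 0.19 to 2.71 ± 0.47. The ratios that overlapped were Ldha to Ldhb, given above, and Slc16a3 to Slc16a1 (p = 0.3, exact permutation test).

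Fold changes do depend on scaling. With TMM factors, which were 0.852 to 0.887 in wild-type and 1.13 to 1.17 in KO mice, the median of all genes was 0.033. It was 0.45 with total counts alone, -0.71 with Rpl32 and 0.97 when libraries were scaled to 5 adipocyte markers (Pparg, Fabp4, Adipoq, Plin1 and Lipe), an alternative chosen after seeing the data. Relative to these adipocyte markers 16 of the 35 genes were lower and 10 higher, beside 497 lower and 9273 higher of all 12995 genes tested, and the median of the 35 was -0.35 against 0.97 for all genes. Slc2a4, Hk2, Gpi1, Pfkl, Aldoa, Gapdh, Pkm, Ldha, Ldhb, Pfkfb3, Taldo1, Tkt, Gys1, Gys2, Gbe1 and Pygl were called lower under all 5 scalings drawn. Aldoc and Pfkfb4 were called higher under all 5. Scaling does not bear on reads shared with other genes, so the limit given for Gapdh remains.

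**Figure D4:**
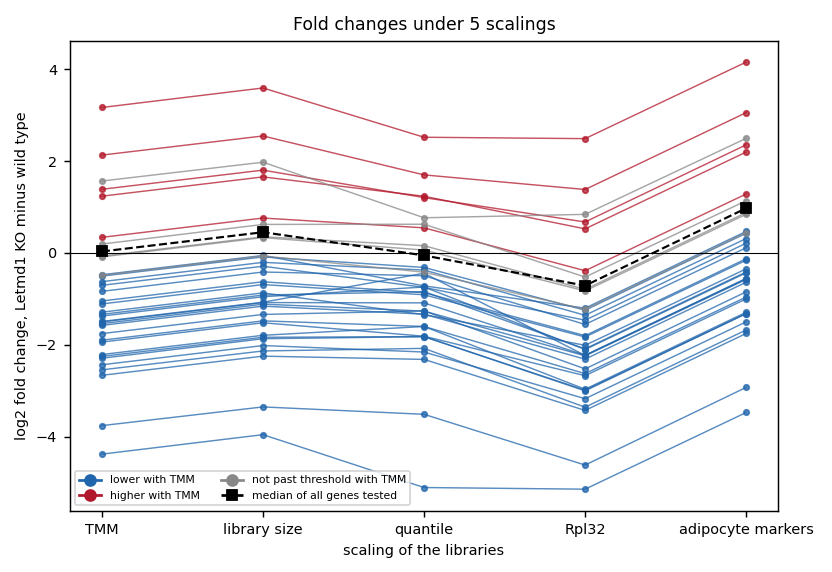
Log2 fold change (Letmd1 KO minus wild type) of the 35 tested genes (lines, coloured by their call with TMM) under 5 scalings of the libraries, with the median of all genes tested as black squares. The lines move up and down with the black squares, from -0.71 with Rpl32 to 0.97 with adipocyte markers, and most blue lines stay below the squares.

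Other genes of the same pathways, 89 in number, were chosen with earlier results of these data known. Of 72 tested, 30 were lower, against 22.3% of all genes, and 12 higher, against 23.7% of all genes, with a median log2 fold change of -0.10. The counts of the smaller lists that follow stand against the same shares. Among 11 further sugar and monocarboxylate transport genes 5 were lower and 2 higher. Slc2a5, the fructose transporter, had 33.5, 75.8 and 100 CPM in wild-type and 2.19, 15.2 and 1.59 CPM in KO mice (log2 fold change -3.59, adjusted p = 0.00375, edgeR). Emb, a partner protein of monocarboxylate transporters, had 1.51, 1.17 and 2.47 CPM in wild-type and 7.57, 16.3 and 7.34 CPM in KO mice (log2 fold change 2.59, adjusted p = 0.00107). Of 9 further glycolysis genes 4 were lower and 1 higher. The higher one was Hk3, the hexokinase of myeloid cells, with 0.646, 1.17 and 0.912 CPM in wild-type and 3.40, 13.2 and 4.70 CPM in KO mice (log2 fold change 2.93, adjusted p = 0.00304). It was highest in KO 2, as were the macrophage markers. Of 7 further pentose phosphate genes 2 were lower and 1 higher.

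Among 19 further glycogen genes 9 were lower and 2 higher. Ppp1r3b and Ppp1r3c encode subunits that bring protein phosphatase 1 to glycogen, which favours its synthesis. Ppp1r3b had 457, 496 and 703 CPM in wild-type and 64.3, 31.6 and 73.4 CPM in KO mice (log2 fold change -3.28, adjusted p = 3.99e-05, edgeR). Ppp1r3c had 290, 282 and 194 CPM in wild-type and 38.0, 35.6 and 39.8 CPM in KO mice (log2 fold change -2.76, adjusted p = 5.89e-06). Stbd1, which binds glycogen and is linked to its delivery to lysosomes, went the other way, with 5.38, 4.55 and 5.73 CPM in wild-type and 47.4, 42.3 and 60.7 CPM in KO mice (log2 fold change 3.27, adjusted p = 5e-06).

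Of 10 regulators of glucose metabolism 3 were lower and 1 higher. Myc, an E-box protein, had 1.40, 3.49 and 1.82 CPM in wild-type and 16.5, 21.8 and 17.8 CPM in KO mice (log2 fold change 3.04, adjusted p = 7.96e-05, edgeR). Mlxipl, which encodes ChREBP, had 291, 318 and 409 CPM in wild-type and 69.5, 62.1 and 79.1 CPM in KO mice (log2 fold change -2.27, adjusted p = 1.09e-05). Epas1, which encodes HIF-2α, had 329, 376 and 338 CPM in wild-type and 144, 151 and 164 CPM in KO mice (log2 fold change -1.18, adjusted p = 3.95e-05). Hif1a had 40.0, 36.3 and 28.1 CPM in wild-type and 42.7, 45.9 and 39.9 CPM in KO mice and did not pass the test (log2 fold change 0.29, SE 0.15, adjusted p = 0.144, edgeR). The transcripts of the factors whose letters are shown above thus went in different directions, and nothing is measured here of their proteins or binding. Mlxipl, Epas1 and Hif1a fall outside the rule by which the other genes of these pathways were named and were chosen after their values were seen.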

How the data were processed

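Total RNA (500 ng) of BAT was made into QuantSeq 3′ libraries and sequenced as single-end reads of 75 bases. The authors aligned reads with Bowtie2, counted unique and multiple alignments with bedtools and deposited whole-number counts per gene, without normalization. The build, per the labels, was mm10. The annotation and the use of strand are not given in the sources used here, so genes that overlap another gene at the 3′ end on the opposite strand (Slc2a1, Pfkp, Tpi1, Gapdh, G6pdx and the second Aldoa locus) or on the same strand (Pfkfb2 and Pgls) may hold its reads.

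Counts were tested in R 4.3.3 with edgeR 4.0.16 (TMM, default filter with count 10 and total 15 as minima, quasi-likelihood test, Benjamini-Hochberg adjustment over 12995 rows, threshold 0.05). Values are TMM-scaled CPM. Alternatives used DESeq2 1.42.0 and limma 3.58.1, with quantile normalization, the method the paper names. Isoform ratios used a pseudocount of 0.5 count and two-sided exact permutation tests. Steps were tested on simulated data. Mice of 1 genotype were never as alike as repeat counts of 1 library would be (chi-square over its degrees of freedom, 11.5 to 34.0 for all pairs), so all 6 counted as separate samples. The floor of 3 counts covers counting error only.

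Members, gene lists and isoform pairs were chosen with earlier results of these data known. All members were named. Of other pathway genes, at most 10 were named by the size of their log2 fold change, among called genes whose mean count was 20 or more and whose genotypes did not overlap, beside Letmd1 and Rpl32. Exceptions are marked in the text, and Eno1b and Pygm were named as relatives of members. Positions and the 75-base windows in the last 300 bases of coding transcripts came from GENCODE vM21 on GRCm38, and promoters from RefSeq on GRCm38.p6 (Python 3.11.15).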

Additional observations from a re-analysis of the deposited data

How the results depend on the processing

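The count of genes lower in KO mice was 25. It stayed between 20 and 28 under all alternatives except scaling to adipocyte markers, which gave 16. Over all genes the count lower also moved, from 2897 of 12995 with TMM to 7147 of 12783 with Rpl32, which gave the 28. With adipocyte markers it was 497. The share over all genes was not computed for the stricter adjusted p or the 2-fold filter. The count of genes higher was 5, and became 2 with Rpl32 (1156 of all 12783 genes tested), 3 with the muscle covariate (1815 of 12995), 7 with total counts alone (5891) and 10 with adipocyte markers (9273), beside 3082 with TMM. Leaving out 1 mouse gave 23 to 24 lower and 4 to 6 higher, beside 2347 to 2869 lower and 2495 to 2999 higher of all genes. Of other pathway genes, 17 were lower and 25 higher with total counts alone, against 30 and 12. Over all genes this scaling gave 1371 lower and 5891 higher, against 2897 and 3082. Some signs turned. With total counts alone, Tpi1 was at 0.35 and Pygb at 0.34 (log2). With quantile normalization, Tpi1 was at 0.16 and Pygb at 0.063. With Rpl32, Pfkp was at -0.39 and Slc16a1 at -0.52. With the muscle covariate, Pygb was at 0.0093. With adipocyte markers, Tpi1 was at 0.88, Pygb at 0.84, Pfkfb2 at 0.47, Rpia at 0.44, G6pdx at 0.43, Pgls at 0.31, Pfkfb1 at 0.21 and Pgam1 at 0.11. When 1 mouse was left out, Pygb ranged from -0.15 to 0.014 (0.014 without wild type 3 and 0.0027 without KO 1), Slc16a1 from -0.0013 (without wild type 2) to 0.61, and the log2 ratio of Ldha to Ldhb from -0.57 to 0.063 (without KO 3). The cause was not tested. Without filtering, Pfkp lost its call (0.34, adjusted p = 0.0517, edgeR). The replicate numbers of the labels did not pair the mice (correlations of same-numbered deviations 0.0691, -0.111 and -0.0865). With the replicate block 24 genes were lower and 5 higher, beside 2713 and 2886 of all 12995 genes. The call lost was that of Pfkfb2 (-0.47, adjusted p = 0.0871, edgeR). For the isoform ratios, the mean of paired differences equals the difference of group means by arithmetic, so the block could not change it. Its exact sign-flip test cannot go below 0.25. The lowest of the 35 genes, Slc16a3, had 1 count in wild type 1, under the floor of 3 counts. The p-values measure the spread between these mice.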

Other observations

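Genes that carry pyruvate, the product of glycolysis, into mitochondria or that run the pathway backwards also moved. The carriers were counted above among the further glycolysis genes. The mitochondrial pyruvate carrier genes were lower in KO mice, Mpc1 from 468, 555 and 535 CPM to 112, 208 and 144 CPM (log2 fold change -1.75, adjusted p = 0.000155, edgeR) and Mpc2 at -2.21 (adjusted p = 1.96e-05). Of 5 tested gluconeogenesis genes 3 were lower and 1 higher. Pck1, the cytosolic form that also serves glyceroneogenesis in fat, was lower (log2 fold change -0.97, adjusted p = 0.0154, edgeR). It had 6804, 5052 and 3001 CPM in wild-type and 2284, 2881 and 2429 CPM in KO mice, so wild type 3 lay close to KO 2. Pck2, the mitochondrial form, rose from 17.2, 10.4 and 10.2 CPM to 92.5, 60.7 and 84.4 CPM (log2 fold change 2.65, adjusted p = 3.62e-05, edgeR). Mpc1, Mpc2 and Pck1 were chosen after their values were seen.

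Of 11 tested targets of the hypoxia-inducible factors outside glycolysis, 4 were lower and 4 higher. The extremes were Ero1l, an oxidase of the endoplasmic reticulum, with 19.1, 24.4 and 11.8 CPM in wild-type and 421, 344 and 531 CPM in KO mice (log2 fold change 4.54, adjusted p = 5.66e-06, edgeR), and Egln3, a prolyl hydroxylase that acts on these factors, with 15.9, 14.2 and 10.6 CPM in wild-type and 0.329, 2.64 and 0.587 CPM in KO mice (log2 fold change -3.66, adjusted p = 0.000636).

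KO 2 stood above KO 1 and KO 3 for Gys2, Pygl, Tkt, Slc2a5 and Egln3, each much lower in KO than in wild-type mice, and also for Hk3, which was higher. The same mouse had the highest summed macrophage markers (3679 CPM, against 1754 and 1522 CPM). Among KO mice it also had the highest sum of brown adipocyte markers (18660 CPM, against 15930 and 15280 CPM) and of lymphocyte markers. Its sums of muscle, endothelial, erythroid and nerve markers were the lowest of the KO mice. The genes named for KO 2 were picked after their values were seen, and nothing about this mouse was tested.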
